A study of Rattus norvegicus with 22 samples.

Results

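The genes described here are the rat genes whose official symbol begins with Zfp followed by a digit, the usual rodent designation for a zinc finger protein. Of 18166 genes that had probe sets with a single symbol in the array's annotation, 242 carried such a symbol. A gene was represented by its probe set with the highest mean over the 22 arrays, and 6 of the 242 genes had more than 1. The study measured liver RNA of female Crl:CD(SD) rats, an outbred Sprague-Dawley stock, after a single intraperitoneal injection of either a vehicle (12 rats) or GSK932121A at 50 mg/kg (10 rats). GSK932121A is an inhibitor of mitochondrial complex III, the respiratory chain enzyme that oxidises ubiquinol. The dose was one known to be acutely toxic, and treated livers were taken after 5 hours. For the vehicle group the labels give no time. The labels list all rats as 12 weeks old, while the protocol gives a range of 10 to 14 weeks on the day of dosing. Both groups received the same formulation of mannitol, hydroxypropyl methylcellulose and sodium dodecyl sulphate in water. Each group had 12 dosed rats, and the submitters left out 2 treated rats with low plasma exposure, so the treated group had been selected on exposure. Each array held the median liver lobe of 1 rat, and p-values below measure the spread between these rats at 1 dose and 1 time.

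Most proteins named Zfp carry arrays of C2H2 zinc fingers, small folds in which cysteines and histidines hold a zinc ion and which read DNA bases. Many of them also carry a KRAB domain, which recruits the corepressor Trim28 and with it histone methylation to silence transposable elements and other genes, and such genes often lie side by side in clusters that arose by duplication. Zfp36 and its relatives Zfp36l1 and Zfp36l2 share the name but not the function: their CCCH fingers bind AU-rich elements in messenger RNAs and bring in the CCR4-NOT deadenylase, so that the message is degraded.

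The 10 treated livers differed from the 12 vehicle livers in opposite ways across the family. The transcripts of the decay factors Zfp36 (3.27-fold) and Zfp36l2 (1.93-fold) rose, as did those of Zfp354a (3.86-fold), Zfp939 (2.56-fold) and Zfp612 (2.00-fold). A further probe set of Zfp36l2 was nearly unchanged (log2 difference 0.07). Across the whole family 11 of 242 genes rose and 51 fell at an adjusted p under 0.05 (limma, Benjamini-Hochberg adjustment over all 18166 genes). Of all genes 12.4% passed the test, 5.31% by rising and 7.05% by falling. Among the Zfp genes the share that rose was 4.55% and the share that fell 21.1%. Other zinc finger symbols, counted after their values were seen, had similar shares of falls: 9 of 39 Zbtb genes (23.1%), 3 of 16 Zscan and Zkscan genes (18.8%), of which 15 were lower in treated livers, and 2 of 5 Znf genes. Of 17 Zc3h genes, a CCCH family, 2 fell and 2 rose. The falls were small, 1.16-fold to 1.72-fold with a median of 1.31-fold. A change of at least 1.5-fold was seen for 5 of the rising and 3 of the falling genes, and 3 rises but no falls reached 2-fold, with Zfp612 just under it. Among all 18166 genes rises were also the larger changes: 315 rises and 121 falls reached 1.5-fold, and 130 rises and 16 falls reached 2-fold. When 7 surrogate variables, estimated from the arrays and accounting for 46.6% of the variance of the group term, were fitted beside the group, 5 Zfp genes rose and 7 fell (2.89%, against 1.60% of all genes).

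The 3 decay factors measured are described first (Zfp36l3 was not analysed here). Their promoters are printed because these genes varied together from liver to liver and belong to 1 family of proteins, and those of Zfp354a and Zfp467 because these genes had the largest rise and the largest fall of the family. Each is the RefSeq sequence of build GRCr8 from 250 bases before to 50 bases after the annotated start, written 5′ to 3′ on the gene's own strand. Capitals mark a match to the CArG box, the binding site of serum response factor, in Zfp36, to the cyclic AMP response element core TGACGT in Zfp36l2, and to the Zfp143 and Thap11 site (ACTACA and TCCCA with any 2 bases between them) in Zfp354a. Zfp36 lay at chr1:92799059-92799358 on the minus strand, Zfp36l1 at chr6:104668641-104668940 on the minus strand, Zfp36l2 at chr6:16242372-16242671 on the plus strand, Zfp354a at chr10:35897013-35897312 on the plus strand and Zfp467 at chr4:78723086-78723385 on the minus strand.
Zfp36: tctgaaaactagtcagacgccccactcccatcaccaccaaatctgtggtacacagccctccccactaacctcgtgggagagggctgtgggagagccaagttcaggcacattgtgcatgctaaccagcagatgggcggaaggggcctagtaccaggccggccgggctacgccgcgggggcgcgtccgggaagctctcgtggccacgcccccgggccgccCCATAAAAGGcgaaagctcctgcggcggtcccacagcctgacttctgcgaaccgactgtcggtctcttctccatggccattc
Zfp36l1: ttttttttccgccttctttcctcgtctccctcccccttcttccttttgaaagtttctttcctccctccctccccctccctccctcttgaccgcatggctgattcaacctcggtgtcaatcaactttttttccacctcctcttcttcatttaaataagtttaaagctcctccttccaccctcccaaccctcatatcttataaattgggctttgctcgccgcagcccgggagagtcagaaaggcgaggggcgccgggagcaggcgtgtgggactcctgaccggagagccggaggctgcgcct
Zfp36l2: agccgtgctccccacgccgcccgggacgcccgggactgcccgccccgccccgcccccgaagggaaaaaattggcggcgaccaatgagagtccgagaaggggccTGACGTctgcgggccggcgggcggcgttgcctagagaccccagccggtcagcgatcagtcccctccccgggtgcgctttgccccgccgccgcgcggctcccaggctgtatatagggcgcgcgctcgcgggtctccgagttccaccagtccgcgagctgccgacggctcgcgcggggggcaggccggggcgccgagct
Zfp354a: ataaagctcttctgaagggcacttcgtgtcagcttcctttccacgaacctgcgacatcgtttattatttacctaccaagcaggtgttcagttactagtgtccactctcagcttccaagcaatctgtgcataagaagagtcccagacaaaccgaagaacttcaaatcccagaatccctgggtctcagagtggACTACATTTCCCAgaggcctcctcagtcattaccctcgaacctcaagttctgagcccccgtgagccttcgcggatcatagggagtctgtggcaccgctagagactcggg
Zfp467: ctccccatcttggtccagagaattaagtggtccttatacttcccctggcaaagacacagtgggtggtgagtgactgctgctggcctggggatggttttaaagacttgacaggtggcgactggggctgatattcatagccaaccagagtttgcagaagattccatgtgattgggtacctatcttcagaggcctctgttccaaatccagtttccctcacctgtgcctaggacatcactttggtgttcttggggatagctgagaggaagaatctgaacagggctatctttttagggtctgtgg
The CArG match of Zfp36 began 32 bases before the start and a CArG match lay in 0.889% of the 225 Zfp promoter entries and 1.64% of all 33469 entries. The TGACGT core of Zfp36l2 began 147 bases before the start, and 8.0% of Zfp entries and 7.94% of all entries held it on either strand. Zfp36l1 had an AP-1 match (TGANTCA) 152 bases before its start, a motif in 4.89% of Zfp entries and 7.33% of all. No capitals were set in Zfp36l1 or Zfp467. These matches describe letters, not bound sites.

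Zfp36 encodes tristetraprolin, the best studied of the AU-rich element decay factors. Its log2 value ran from 7.14 to 8.63 in the vehicle livers (median 7.98) and from 8.62 to 10.61 in the treated livers (median 9.88). Of the 10 treated livers, 9 lay above the highest vehicle liver, and replicate 24 at 8.62 fell just under it. The means were 7.94 ± 0.49 (SD, n = 12) and 9.65 ± 0.74 (SD, n = 10), a log2 difference of 1.71 ± 0.24 (SE; adjusted p = 1.69e-05). With surrogate variables the difference was 0.83 and the call stood.

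Zfp36l2, which with Zfp36l1 restrains proliferation in lymphocyte precursors, ran from 6.26 to 7.31 in vehicle livers (median 6.72) and from 7.03 to 9.02 in treated livers (median 7.49). The groups overlapped, with 7 treated livers above the vehicle range. The difference was 0.95 ± 0.21 (SE; adjusted p = 0.00243) and lost significance with surrogate variables (0.40, adjusted p = 0.121). A further probe set of Zfp36l2, with a lower mean, had nearly the same level in both groups (6.14 and 6.20, difference 0.07 ± 0.08, adjusted p = 0.68 over all probe sets), so the probe sets of this gene disagreed. Zfp36l1, the decay factor that takes part in bile acid control through the message of Cyp7a1, did not pass the test. It ran from 9.31 to 10.72 in vehicle livers (median 10.23) and from 9.67 to 11.77 in treated livers (median 10.51), with 5 treated livers above the vehicle range. Its difference of 0.40 ± 0.22 (adjusted p = 0.269) turned to -0.24 with surrogate variables, where it also did not pass (adjusted p = 0.249).

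**Figure D1:**
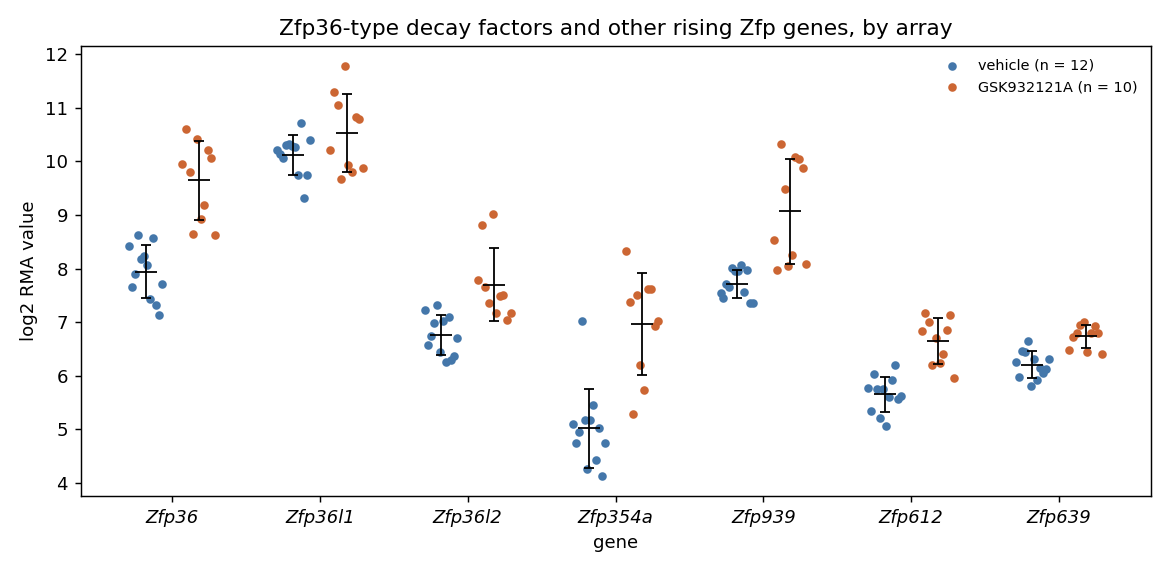
Log2 RMA value of the decay factors and of the next largest risers in each array, vehicle livers (n = 12, blue) beside GSK932121A livers (n = 10, orange), with the mean and SD in black. Zfp36 in 9 treated livers lies above every vehicle liver, Zfp36l1 overlaps widely, and 1 vehicle liver of Zfp354a stands at 7.02 amid treated livers.

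The 3 decay factors varied together among livers of the same group. In the vehicle livers Zfp36 correlated with Zfp36l1 (Pearson r = 0.792, permutation p = 0.00133, adjusted 0.00399; Spearman rho = 0.741, p = 0.00762, adjusted 0.0152; n = 12) and r was 0.804 without the 2 livers farthest from the median. In the treated livers the same pair gave r = 0.885 (permutation p = 0.00125, adjusted 0.00399; rho = 0.855, p = 0.00296, adjusted 0.0152; n = 10), and r = 0.851 without the 2 farthest. Livers high in 1 of these genes thus tended to be high in the other, in both groups. Zfp36 and Zfp36l2 gave r = 0.790 in vehicle livers (permutation p = 0.00326, adjusted 0.00652; rho = 0.741, p = 0.00735, adjusted 0.0152; n = 12) and r = 0.683 in treated livers (permutation p = 0.0255, adjusted 0.0255; rho = 0.661, p = 0.044, adjusted 0.044; n = 10). Without the 2 farthest livers r was 0.785 and 0.671. Zfp36l1 and Zfp36l2 gave r = 0.720 in vehicle livers (permutation p = 0.00582, adjusted 0.00873; rho = 0.671, p = 0.0202, adjusted 0.0303; n = 12) and r = 0.745 in treated livers (permutation p = 0.00871, adjusted 0.0105; rho = 0.661, p = 0.0437, adjusted 0.044; n = 10), falling to 0.600 and 0.574 without the 2 farthest. These 6 relations were adjusted together, and values of 1 array share its RNA sample and normalization.

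Partners of the decay factors moved both ways. Of 34 genes listed for messenger RNA decay and its control, 28 were measured, of which 6 rose (21.4%, against 5.31% of all genes) and 4 fell (14.3%, against 7.05%). The list's median vehicle mean was high, 7.81. Among non-Zfp genes with a vehicle mean of 7 and over, 8.21% rose and 14.5% fell, so the list's share of falls was near that of its level. With surrogate variables 3 rose and 0 fell. Mapkapk2, the kinase that phosphorylates Zfp36 and holds back its recruitment of the deadenylase, was at 7.97 ± 0.18 (SD, n = 12) in vehicle livers and 9.46 ± 0.44 (SD, n = 10) in treated livers. Every treated liver exceeded every vehicle liver for Mapkapk2, as for 0.457% of all genes, and it rose 2.81-fold (log2 difference 1.49 ± 0.13, adjusted p = 2.61e-08). Tob1 and Btg1, antiproliferative proteins that bind the deadenylase, rose 2.15-fold (adjusted p = 0.000266; with surrogate variables 0.0892) and 1.70-fold (adjusted p = 1.01e-06). Hnrnpd, which binds AU-rich elements, the endonuclease Zc3h12a and the deadenylase subunit Cnot7 also rose. The decapping cofactor Dcp1b fell 1.36-fold (adjusted p = 0.00353), and Dcp2, Cnot6l and Ddx6 fell less; leaving out each liver in turn gave 3 to 4 falls on the list. The list's median difference was -0.06, against -0.01 over all genes.

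Of transcripts known to carry AU-rich elements that Zfp36 binds, 10 of 23 measured rose (43.5%, against 5.31% of all genes; with surrogate variables 4, against 1.92% of all genes), with a median log2 difference of 0.26 against -0.01 over all genes. None of the 23 fell by limma, Welch's test or Wilcoxon's test after adjustment, and 1 was lower at an unadjusted p under 0.05 in limma. Of all genes 7.05% fell, a share at which few of 23 genes would fall. The list's median vehicle mean was 5.72. Among non-Zfp genes with a vehicle mean between 5 and 6, 6.50% rose and 6.84% fell. Without treated replicate 18 limma called 1 fall. Socs3, a feedback inhibitor of cytokine signalling, rose 3.11-fold (adjusted p = 1.69e-05), and the growth regulator Myc rose 3.09-fold (adjusted p = 4.99e-06), with all 10 treated livers above the vehicle range. Nfkbiz, a nuclear inhibitor of the kappa B family, rose 2.41-fold (adjusted p = 0.00287) and the chemokine Cxcl1 2.40-fold (adjusted p = 0.0192); both calls were lost with surrogate variables (adjusted p = 0.71 and 0.0676). The first described target, Tnf, differed by -0.06 ± 0.07 (adjusted p = 0.697). Both Zfp36 and these transcripts were measured as steady levels, and decay rates were not measured.

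Among the other 239 Zfp genes, 9 rose and 51 fell, with a median difference of -0.12. Zfp354a, a KRAB zinc finger repressor first known as Kid-1 from kidney, had the largest rise of the family. Its log2 value ran from 4.13 to 7.02 in vehicle livers (median 4.99) and from 5.28 to 8.34 in treated livers (median 7.21). Vehicle replicate 4 alone reached 7.02, and 6 treated livers lay above it. The means of 5.02 ± 0.75 (SD, n = 12) and 6.96 ± 0.95 (SD, n = 10) gave a difference of 1.95 ± 0.32 (SE; adjusted p = 0.00014), which ranged from 1.80 to 2.14 when each liver was left out in turn. Its paralog Zfp354c did not pass (-0.34 ± 0.14, adjusted p = 0.131).

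Zfp939 ran from 7.35 to 8.06 in vehicle livers (median 7.68) and from 7.97 to 10.33 in treated livers (median 9.01), with 8 treated livers above the vehicle range. Its difference was 1.36 ± 0.26 (adjusted p = 0.000747), and its spread among treated livers was wide, 0.98 against 0.27 (SD). Zfp612 rose evenly, from 5.65 ± 0.33 (SD, n = 12) to 6.65 ± 0.42 (SD, n = 10), with 8 treated livers above the vehicle range (1.00 ± 0.15, adjusted p = 3.79e-05; with surrogate variables adjusted p = 0.0501). Zfp639, the transcription factor ZASC1, ran from 5.81 to 6.65 in vehicle livers (median 6.20) and from 6.40 to 7.01 in treated livers (median 6.80), 7 of them above the vehicle range (0.53 ± 0.10, adjusted p = 0.000469).

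Smaller rises, all between 1.24-fold and 1.32-fold, were those of Zfp131 (a BTB-domain factor, adjusted p = 0.00869), Zfp866 (0.0126), Zfp609 (0.00524), Zfp438 (0.0175) and Zfp276 (0.0286). The call of Zfp276 was lost without any of 5 livers, with an adjusted p of up to 0.063 without treated replicate 18. Of the 5, the rise of Zfp866 alone passed with surrogate variables. Zfp609, a chromatin-associated factor that works with the cohesin loader, was tight in vehicle livers (7.60 ± 0.08, SD, n = 12) and wider in treated livers (7.94 ± 0.26, SD, n = 10): 7 treated livers lay above the vehicle range and 1 below it. Both of its probe sets were higher (differences of 0.33 and 0.40). Its paralog Zfp608 was among the largest falls.

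**Figure D2:**
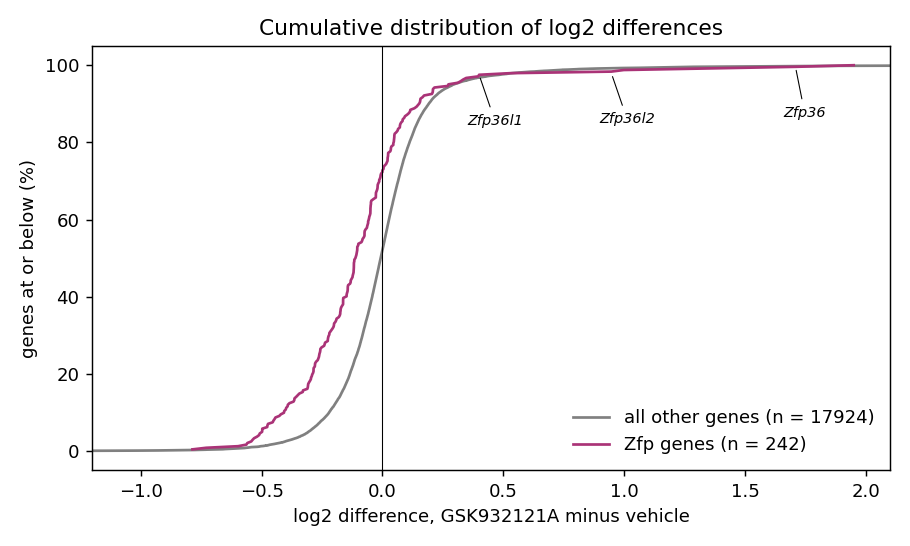
Cumulative share of genes at or below each log2 difference (GSK932121A minus vehicle), for the 242 Zfp genes and the other genes of the array; the few genes beyond the ends of the axis are not drawn. The Zfp curve lies to the left of the other below 0, with a median of -0.11 against -0.01 over all genes, while Zfp36 and Zfp36l2 sit in its upper tail.

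The falls made up most of the changes in the family. Of the 242 genes, 176 (72.7%) had a lower mean in treated livers, against 52.4% of all genes. The median log2 difference of -0.11, against -0.01 over all genes, stayed between -0.12 and -0.05 under the other normalizations, filters and models tried. Zfp467, a C2H2 factor that favours the adipocyte over the bone cell lineage, fell the most. It ran from 6.18 to 6.94 in vehicle livers (median 6.40) and from 5.03 to 6.12 in treated livers (median 5.65). All 10 treated livers lay below all 12 vehicle livers, which held for no other Zfp gene and for 0.281% of all genes. Its difference was -0.79 ± 0.10 (SE; 1.72-fold lower, adjusted p = 8.15e-06).

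Zfp52 ran from 3.63 to 4.69 in vehicle livers (median 4.11) and from 3.12 to 3.64 in treated livers (median 3.48), with 9 treated livers below the vehicle range (-0.73 ± 0.11, adjusted p = 4.05e-05). Its values were low on these arrays, whose medians ran from 4.73 to 4.85. Zfp608 ran from 6.23 to 6.89 (median 6.49) and from 5.73 to 6.28 (median 6.00), again with 9 treated livers below the vehicle range (-0.56 ± 0.09, adjusted p = 6.25e-05). Zfp287, which has a SCAN domain beside its KRAB domain, ran from 5.07 to 5.66 (median 5.44) and from 3.90 to 5.40 (median 4.88). Only 6 of its treated livers lay below the vehicle range, and its spread was wider under treatment (-0.60 ± 0.14, adjusted p = 0.00424).

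The next of the 10 largest falls were close to one another in size, from 1.42-fold to 1.47-fold: Zfp251 (adjusted p = 0.000998), Zfp597 (0.0125), Zfp951 (0.0183), Zfp958 (0.00191), Zfp472 (0.00317) and Zfp322a (0.00159). Between 4 and 8 treated livers lay below the vehicle range in each. Of all 51 falls, 37 had at least 5 treated livers below the lowest vehicle liver. This count was made only among genes already called, for which such separation is likely. Its share over all falling genes was not computed. Some falls were small but separated the groups well: Zfp972 went from 7.07 ± 0.14 (SD, n = 12) to 6.67 ± 0.14 (SD, n = 10), with 9 treated livers below the vehicle range (-0.40 ± 0.07, adjusted p = 0.00015). Zfp972 was chosen after its values were seen. With surrogate variables 6 of the 51 falls kept their call: Zfp395, Zfp41, Zfp467, Zfp52, Zfp608 and Zfp972.

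**Figure D3:**
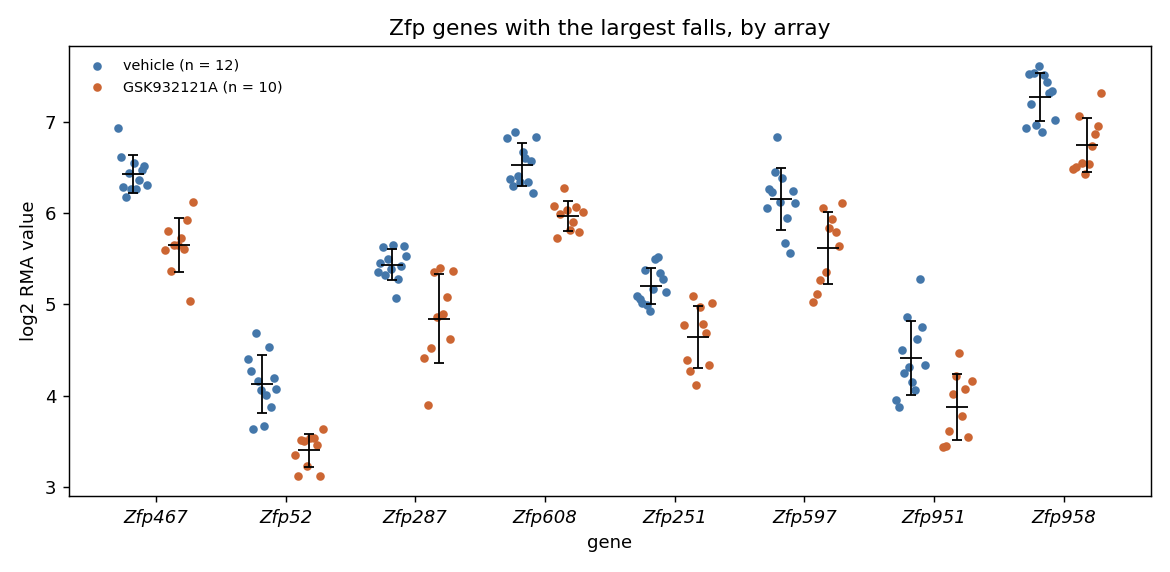
Log2 RMA value of the 8 Zfp genes with the largest falls in each array, vehicle livers (n = 12, blue) beside GSK932121A livers (n = 10, orange), with the mean and SD in black. Zfp467 shows no overlap between the groups, whereas Zfp597 has 4 and Zfp951 has 5 treated livers below the vehicle range.

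Falls also reached factors with known roles, named here after their values were seen. Zfp281, a repressor of pluripotency genes, fell 1.31-fold (adjusted p = 0.00287) and Zfp217, an oncogenic corepressor-binding factor, fell 1.36-fold (adjusted p = 0.000281). Zfp57, a KRAB protein that keeps methylation at imprinted loci, fell 1.27-fold (adjusted p = 0.013). Zfp148 (ZBP-89), which binds GC-rich promoters, fell 1.18-fold (adjusted p = 0.0153). In each of these 4 genes a part of the treated livers stayed inside the vehicle range, and with surrogate variables none passed (adjusted p from 0.0529 to 0.556).

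Several of the most strongly detected members did not pass. Zfp91, a zinc finger ubiquitin ligase, was at 9.14 ± 0.13 (SD, n = 12) and 9.07 ± 0.17 (SD, n = 10), a difference of -0.07 ± 0.07 (adjusted p = 0.566). Zfp706 differed by -0.13 ± 0.07 (adjusted p = 0.229). Zfp266 differed by -0.22 ± 0.08 (adjusted p = 0.0598), but passed in 3 of 11 alternatives (both filters on low values and Wilcoxon's test, adjusted p down to 0.0199) and without treated replicate 24 (0.0134). Zfp746, known as PARIS, represses Ppargc1a, the coactivator of mitochondrial biogenesis; it was at 6.79 ± 0.31 (SD, n = 12) and 6.90 ± 0.19 (SD, n = 10) and differed by 0.10 ± 0.11 (adjusted p = 0.621).

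By vehicle mean, the share of Zfp genes that fell was above that of other genes in every band of expression level but the lowest, and by the mean over all arrays in every band. Genes were grouped by their vehicle mean, a probe-set value that also carries probe affinity. Under a log2 value of 4, limma called none of 29 Zfp genes in either direction (4 were lower and 1 higher at an unadjusted p under 0.05, and neither Welch's nor Wilcoxon's test called any after adjustment), and 0.472% of other genes there fell. Between 4 and 5, 7 of 48 Zfp genes fell (14.6%, against 1.47% of other genes). The shares were 25.3% against 6.84% between 5 and 6 (21 of 83) and 24.1% against 11.7% between 6 and 7 (13 of 54). At 7 and over, 10 of 28 fell (35.7% against 14.5%). In the same bands the median difference of Zfp genes was below that of other genes each time, by most between 5 and 6 (-0.15 against -0.01). The share of rises was 4.17% against 2.64% between 4 and 5 (2 of 48) and 3.61% against 6.50% between 5 and 6. It was 3.70% against 8.97% between 6 and 7, and 14.3% against 8.21% at 7 and over (4 of 28). Grouped by the mean over all 22 arrays instead, 6 of 24 fell at 7 and over (25.0% against 13.1%) and 2 of 31 under 4 (6.45% against 0.55%).

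**Figure D4:**
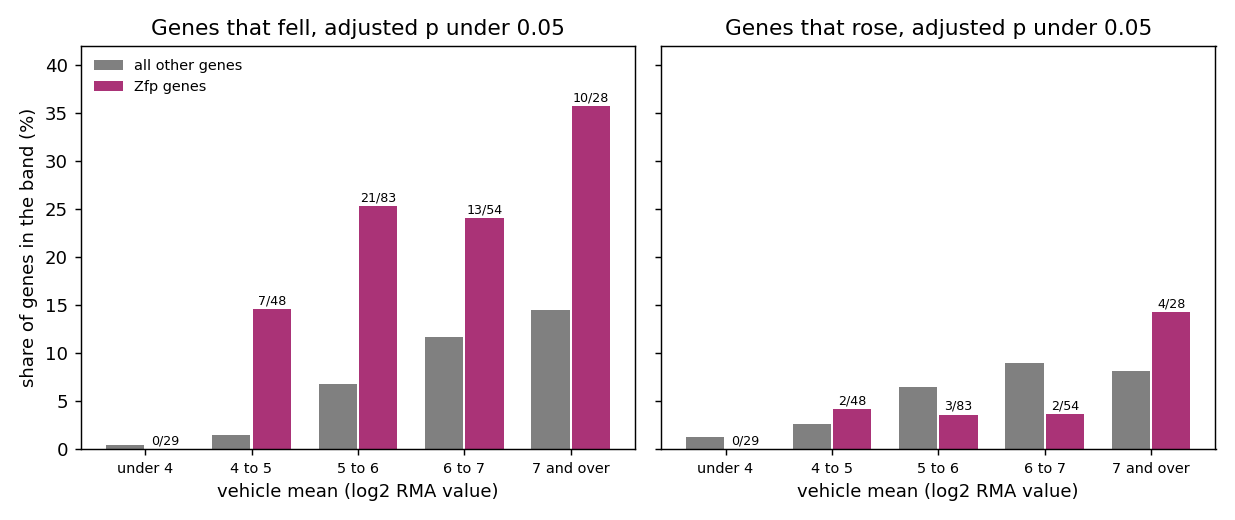
Share of genes (%) that fell, left, and rose, right, at an adjusted p under 0.05, by the gene's mean log2 RMA value in vehicle livers; numbers over the Zfp bars are genes called of genes in the band. The Zfp bars for falls stand above those of other genes from 4 upward, reaching 35.7% against 14.5% at 7 and over.

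The shift differed in size between treated livers. Measured as the median over the 242 genes of the deviation from the vehicle mean, it lay between -0.03 and 0.04 in vehicle livers and between -0.21 and -0.02 in treated livers (median -0.10). The largest shifts were those of replicates 14 (-0.21), 13 (-0.20) and 18 (-0.18), and the smallest that of replicate 17 (-0.02). The same measure over all other genes stayed between -0.02 and 0.01 in treated livers. Leaving out 1 liver at a time gave between 43 and 55 falling Zfp genes. The median SD of the Zfp genes was 0.20 in vehicle and 0.22 in treated livers.

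Genes listed for KRAB corepression and for silencing in general are below called KRAB corepressor genes. They showed 4 falls among 21 measured of 26 listed (19.0%, against 7.05% of all genes; 1 with surrogate variables). Of the 21, 16 (76.2%) were lower in treated livers, against 52.4% of all genes (median -0.08). The list's median vehicle mean was 6.53. Among non-Zfp genes with a vehicle mean between 6 and 7, 11.7% fell and 58.6% were lower, which is nearer to the list's shares. Limma called no rise on the list, while 5.31% of all genes rose, a share at which few of 21 genes would rise. At an unadjusted p under 0.05 in limma 1 gene was higher. Welch's and Wilcoxon's tests also called no rise after adjustment. Dnmt3b, a de novo DNA methyltransferase, fell 1.32-fold (adjusted p = 0.00399) and the chromatin ATPase Morc3 fell 1.27-fold (adjusted p = 0.00461). Cbx5, the heterochromatin protein HP1 alpha, fell 1.24-fold (adjusted p = 0.0361), a call lost without any of 11 livers (up to 0.0785 without treated replicate 13). Dnmt3a fell 1.23-fold (adjusted p = 0.0292), a call lost without any of 7 (up to 0.0604 without treated replicate 14). The corepressor itself, Trim28, differed by 0.12 ± 0.08 (adjusted p = 0.362), and its partner methyltransferase Setdb1 by -0.15 ± 0.07 (adjusted p = 0.221).

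Neighbouring Zfp genes were compared in the gene order of RefSeq build GRCr8, in which 234 of the 242 genes were found. With at most 5 other genes between neighbours, 102 genes formed 35 runs and 132 stood alone. In runs 26 genes fell (25.5%) and 2 rose, with a median difference of -0.14, and among lone genes 24 fell (18.2%) and 9 rose, with a median of -0.08. Of all genes 7.05% fell and 5.31% rose. The median vehicle mean was lower for genes in runs, 5.23 against 5.83 for lone genes. The difference in falls and rises between runs and lone genes was not tested. In 19 of the 35 runs every member was lower in treated livers, and in 3 every member was higher. Most runs held only 2 genes, and 72.7% of all Zfp genes were lower. How many such runs would arise without a link between neighbours was not computed. With at most 2 genes between neighbours the shares that fell were 25.0% in runs and 19.3% among lone genes.

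The run with the most changed members held Zfp799, Zfp870, Zfp472, Zfp952, Zfp763, Zfp101 and Zfp563, of which 5 of 7 fell and all 7 were lower. Zfp870 fell by 0.50 ± 0.11 on the log2 scale (SE; adjusted p = 0.00251), Zfp472 by 0.52 ± 0.12 (adjusted p = 0.00317) and Zfp563 by 0.45 ± 0.13 (adjusted p = 0.0224). Zfp952 (-0.30 ± 0.09, adjusted p = 0.0336) and Zfp763 (-0.31 ± 0.10, adjusted p = 0.0361) also fell. With surrogate variables all 5 calls were lost: the difference was -0.03 for Zfp563 (adjusted p = 0.948), -0.25 for Zfp472 (0.389), -0.29 for Zfp870 (0.315), -0.23 for Zfp952 (0.305) and -0.34 for Zfp763 (0.14). The call of Zfp952 was lost without any of 8 livers (up to 0.0711 without treated replicate 16) and that of Zfp763 without any of 10 (up to 0.0749 without treated replicate 18). Zfp799 differed by -0.10 (adjusted p = 0.623) and Zfp101 by -0.11 (adjusted p = 0.725). Neighbours in such runs can be close copies, and probes may read more than 1 of them, so these genes are not independent measurements.

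**Figure D5:**
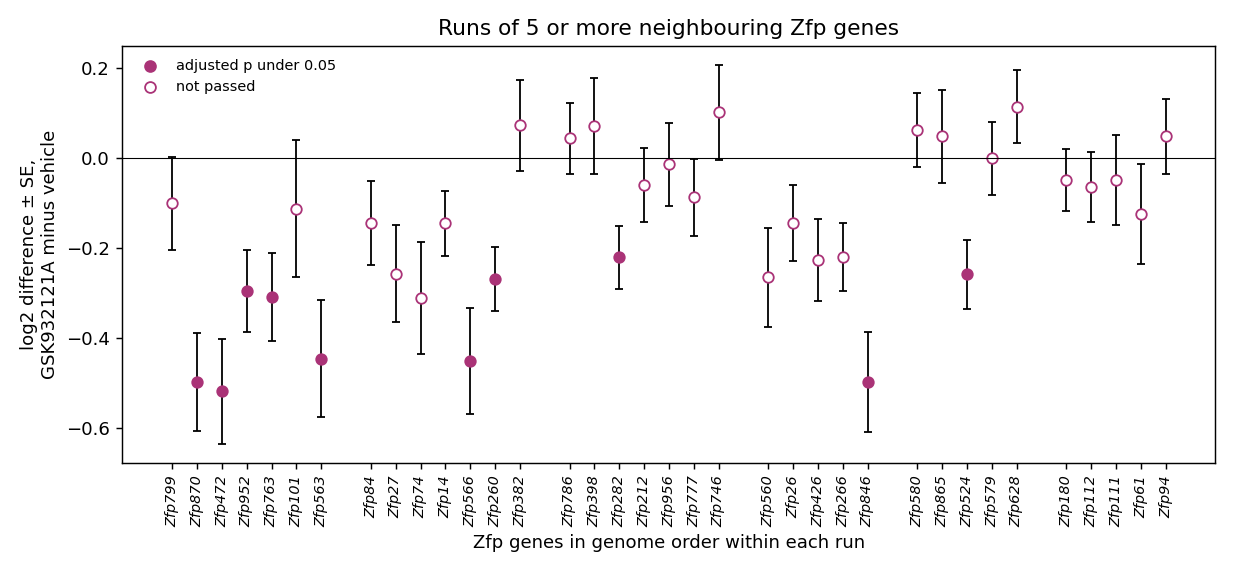
Log2 difference (GSK932121A minus vehicle, with SE) of Zfp genes in the runs that hold at least 5 of them, in genome order within each run; filled points passed the test. In the run at left all 7 genes lie below 0 and 5 are filled.

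Promoter entries were found for 196 of the 242 genes (225 entries). The site read by Zfp143, itself a family member and an activator of many housekeeping promoters, together with Thap11, was searched on both strands as ACTACA and TCCCA with any 2 bases between them; this motif was chosen after some of the promoters had been read. It was present in 24 Zfp entries (10.7%) and in 477 of all 33469 entries (1.43%). The 6 sites of members that passed the test are printed because the shared motif stood in promoters of 5 genes that fell and of the gene that rose most. Capitals mark the motif, with 10 bases on each side, on the strand that reads it forward (RefSeq, GRCr8).
Zfp354a: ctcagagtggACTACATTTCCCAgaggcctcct
Zfp110: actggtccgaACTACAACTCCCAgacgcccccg
Zfp458: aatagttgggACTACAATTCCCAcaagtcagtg
Zfp566: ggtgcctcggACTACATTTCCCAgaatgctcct
Zfp879: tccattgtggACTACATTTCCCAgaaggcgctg
Zfp972: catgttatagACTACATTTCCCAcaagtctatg
In Zfp354a and Zfp879 the site began 59 bases before the start, in Zfp110 48, in Zfp458 100, in Zfp566 133 and in Zfp972 82. Of the 22 genes with the site, 5 fell (22.7%), 1 rose and 16 did not pass, with a median difference of -0.21. Among the 174 genes without it 38 fell (21.8%) and 10 rose, with a median of -0.10. The shares of falls with and without the site lay close together, and their difference was not tested. The call of Zfp110 (adjusted p = 0.0248) was lost without either of 2 livers, with up to 0.0568 without treated replicate 13. That of Zfp458 (adjusted p = 0.0261) was lost without either of 2 (up to 0.0569 without treated replicate 23) and that of Zfp879 (adjusted p = 0.0343) without any of 9 (up to 0.0701 without treated replicate 16). Zfp143 itself differed by -0.26 ± 0.09 (adjusted p = 0.0682).

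The base composition of the Zfp promoters had a median of 56.3% C and G against 51.7% for all entries, and 16 CpG pairs per 300 bases against 7. The GC box GGGCGG was present in 44.0% of Zfp entries and 33.1% of all, and the CCAAT box in 40.4% and 37.5%. Among motifs of stress-response factors, the ATF4 site TGATGNAA was in 1.78% against 3.98%, the FoxO site GTAAACA in 2.22% against 3.78% and the E-box CACGTG in 8.0% against 6.42%. These shares are descriptions of letters in a window of fixed length, with no overlap between the motifs taken into account.

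Because whole liver was measured, fewer cells of a type and less RNA per cell cannot be told apart. Of 49 measured marker genes in 10 cell type lists, 3 passed the test, each by rising: Cps1 of hepatocytes (1.25-fold, adjusted p = 0.000789), Cd163 of Kupffer cells (1.28-fold, adjusted p = 0.00461) and Lyve1 of sinusoidal endothelium (1.16-fold, adjusted p = 0.0201). Of all genes 12.4% passed and 5.31% rose. In the lists of these 3 genes, 3 of 6 hepatocyte, 3 of 7 Kupffer cell and 1 of 4 endothelial markers had a lower mean in treated livers. No marker fell by limma, Welch's or Wilcoxon's test after adjustment, while 7.05% of all genes fell by limma. At an unadjusted p under 0.05 in limma 2 were lower, the B cell markers Cd79a and Ms4a1 (adjusted p = 0.149 and 0.206). Another 7 were higher: the 3 that passed, the stellate cell marker Hgf and the T or NK cell markers Nkg7, Cd8a and Gzmb. The adjusted p of Nkg7, Cd8a and Gzmb ran from 0.0855 to 0.204. In the same T or NK cell list Cd3d differed by -0.10, Cd3e by 0.01 and Cd4 by 0.02. The summed level of the 6 hepatocyte markers lay between 14.9 and 15.2 (log2) in vehicle and between 15.1 and 15.2 in treated livers, and that of the 7 Kupffer cell markers between 10.4 and 11.2 and between 10.5 and 11.1. The ranges of vehicle and treated livers overlapped for every list, and the hepatocyte marker Alb, which encodes albumin, was at 13.41 ± 0.03 (SD, n = 12) and 13.38 ± 0.04 (SD, n = 10). The part of cell makeup in the Zfp differences was not tested.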

How the data were processed

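Liver RNA of 12 vehicle and 10 GSK932121A rats was measured on Affymetrix whole-transcript arrays, 1 per rat. The deposited values are log2 expression values on which the authors used RMA, per the submitters' processing notes, with no version given. Of 36685 probe sets, 18511 had 1 gene symbol, 575 several and 17599 none, and only the first kind was used. The highest-mean probe set stood for each of 18166 genes. Array medians ran from 4.73 to 4.85 and array correlations from 0.971 to 0.990. The labels give no batch.

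limma 3.58.1 (R 4.3.3) was fitted to all genes with group alone and moderated variances, with Benjamini-Hochberg adjustment and a threshold of 0.05. The model was tested on simulated data. Folds are powers of 2 of log2 differences. Correlations used 100000 permutations. Gene order and promoters came from RefSeq GRCr8, with Python 3.11.15; the sources used here name no build of the submitters, and 234 genes matched by Entrez identifier.

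Genes were named by rule: the decay factors, the 10 largest rises and falls, the 5 highest vehicle means, Zfp746, the run with the most called members and 4 genes per pathway list. Further genes were named outside this rule, some of them after their values were seen. Members and lists were chosen with earlier results of these data known. Alternatives were median centring, quantile and cyclic loess normalization, filters at 5 and 6, probe-set means, other variance models, surrogate variables, array weights, Welch's and Wilcoxon's tests, other level bands and neighbour distances, and leaving out each array.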

Additional observations from a re-analysis of the deposited data

Results flagged for a closer look

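In 43 of the genes named, the 10 treated livers were examined for a lowest or highest value far from its neighbour (gap over range above Dixon's critical value; chance gives this in about 1 group in 20), and 2 met this. The group of 12 vehicle livers was not examined this way. Zfp563, in the run of neighbouring genes, had its lowest treated value of 3.75 in replicate 14, against 4.52 in the next liver (gap over range 0.494). Btg1, which rose, had its lowest treated value of 10.42 in replicate 24, against 10.73 in the next (gap over range 0.523).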

How the results depend on the processing

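Surrogate variables changed the counts most: 639 genes passed (349 rose, 290 fell), with 5 Zfp rises and 7 Zfp falls, 3 rises and 0 falls among decay partners, 4 rises among AU-rich transcripts and 1 fall among KRAB corepressor genes. Zfp36l1 then turned to -0.24 (adjusted p = 0.249) and Zfp36l2 was 0.40 (adjusted p = 0.121). What these variables capture was not tested. A mean of at least 6, which tests fewer genes, gave 24 Zfp falls of 78 (30.8%, against 16.3% of all genes), 6 AU-rich rises and 2 KRAB corepressor falls. Grouping by the mean of all arrays gave 2 falls under 4 and 6 at 7 and over. Leaving out each array gave 1854 to 2386 called genes, 10 to 13 Zfp rises and 43 to 55 Zfp falls, 0 to 1 AU-rich falls and 2 to 4 KRAB corepressor falls (2 without vehicle replicate 5 or treated replicate 14 or 23). Of the 51 falls, 40 kept their call without each array in turn and 48 with cyclic loess, as did 10 and 11 of the 11 rises. No paired analysis was possible because each rat was in 1 group and gave 1 array, and the labels name no pairs. The division by KRAB box was not run.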
